A study of Mus musculus with 24 samples.

Results

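Genes of glucose transport, glycolysis, fructose bisphosphatase, lactate handling and glycogen turnover were followed in mouse hearts. The list held 40 genes out of 23998 in the table of polyA RNA. By symbol, 39 of them were found, and Pkm2, the muscle pyruvate kinase gene, was found under its current symbol Pkm. Gapdh was left out because its row was nearly empty, at no more than 1.92 FPKM in any library. Genes averaging 1 FPKM or more over the libraries were tested, which kept 39 of the 40. Aldoc, an aldolase best known from brain, fell below that limit and lay between 0 and 0.847 FPKM.

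The hearts came from 13 mice on a CD1 background that, by the sources used here, carried a human MYL2 transgene, which encodes the ventricular myosin regulatory light chain. The mice named mutant carried its mutated form and those named wild-type transgenic its normal form, so by name the wild-type hearts were transgenic too. There were 4 groups of polyA libraries. The shRNA mutants (n = 4, replicates 5 to 8) had received, at 3 days of age, an AAV9 virus that expresses the M7.8L shRNA, with an RSVp-Cerulean reporter. The control-virus mutants (n = 3, replicates 1 to 3) had received AAV9 without this shRNA, and the untreated mutants (n = 3, replicates 9 to 11) had received no virus. The wild-type hearts (n = 3, replicates 2 to 4) had received the control virus. All hearts were collected at 4 months of age. The genotype field of the labels reads RLC-47K L6 for every sample, so the allele was taken from the sample names, and the sources used here name neither the promoter that drives the transgene nor the region of the heart.

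Glycolysis converts glucose to pyruvate in the cytosol, and pyruvate is then oxidised in mitochondria or reduced to lactate and exported. Most steps have several isozymes encoded by separate genes, with forms that prevail in adult striated muscle and forms that prevail in fetal, proliferating or non-muscle cells. The adult heart draws most of its energy from fatty acids, takes up glucose mainly through the insulin-responsive transporter GLUT4 and keeps a store of glycogen, while stressed hearts are known to shift towards glucose and the fetal isozymes.

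Values are FPKM, fragments scaled by transcript length and by the size of the library, and totals of the deposited libraries ran between 580948 and 1701500 FPKM. Libraries were therefore aligned on the median ratio over the 13875 genes above 0 in every library, and all values below are aligned FPKM unless stated. The depth is unknown, since no read numbers came with these values. A gene was called where the adjusted p of limma, over 12980 tested genes and on log2(aligned FPKM + 1), was under 0.05. Where a call is given with all libraries, this fit of the 13 libraries on aligned values, without a covariate, is meant. Fold changes are on that log2 scale, which understates them for low genes. Nothing in the labels says how littermates or cages were spread over the groups, so the p-values measure only the spread between these samples.

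shRNA replicate 8 stood apart from the other shRNA mutants. A row named hMyl2 was above 0 in shRNA replicates 5, 6 and 7 only, at 229, 419.6 and 317 FPKM as deposited, and was listed at 0 in replicate 8 and in every library of the other groups. The row was thus at 0 in 10 of 13 libraries that are named transgenic. What it measures is not stated, and it was not used as a check of the genotype. Of the 39 tested genes of the list, 21 had all 6 control-virus and untreated mutants on one side of the 3 wild-type hearts (53.8%, against 39.6% of all tested genes), 8 higher and 13 lower in the mutants. For these genes, shRNA replicate 8 was nearer to the mutant mean than to the wild-type mean in 21 of 21, while replicates 5, 6 and 7 were nearer to the wild-type mean in 20, 20 and 19. Over all tested genes separated in this way, 85.8% put replicate 8 nearer to the mutants, against 10.5%, 15.4% and 11.9% for replicates 5, 6 and 7. Counts and fold changes of the shRNA group below include replicate 8 unless stated, and the main ones are also given without it.

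Sex and the markers of several cell types moved with the groups as well. By the Y-linked gene Ddx3y, shRNA replicates 5, 6 and 7 were male and replicate 8 was female, the control-virus mutants were all female, and the untreated mutants and the wild-type hearts each held 1 female, replicates 11 and 4. Between shRNA replicates 5 to 7 and the control-virus mutants, sex and shRNA cannot be told apart by direct comparison. The summed level of 7 fibroblast markers was 969 to 2395 FPKM in shRNA mutants, 2621 to 2921 in control-virus mutants, 2474 to 2593 in untreated mutants and 894 to 1167 in wild-type hearts, with the highest shRNA value in replicate 8. The sum of 6 macrophage markers was 248 to 1037, 826 to 1146, 681 to 995 and 264 to 293 FPKM in the same groups. The 5 endothelial markers summed to 1924 to 2820 FPKM in shRNA mutants and 1227 to 1594 in control-virus mutants. Their sum was 1335 to 1733 in untreated mutants and 1822 to 2056 in wild-type hearts. All 5 were called higher in shRNA than in control-virus mutants, beside 11.9% of all tested genes. With sex as a covariate 0 were called, beside 0.185%, or 4 without replicate 8, beside 29.6%. Against untreated mutants, 2 were called higher with all libraries, beside 16%. The 6 markers of smooth muscle and pericytes summed to 299 to 841, 967 to 1111, 689 to 1148 and 418 to 555.1 FPKM in the same groups, with the highest shRNA value in replicate 8. Acta2 made up most of the sum in control-virus mutants, at 739 to 924 FPKM against 126 to 260 in wild-type hearts. Acta2 and Cnn1 lay above the wild-type range there, and Myh11, Tagln, Rgs5 and Pdgfrb lay below it. Of the 6, 1 was called higher and 2 lower, beside 24.3% of all tested genes. The 8 cardiomyocyte markers were all present and summed to 50679 to 118523 FPKM in shRNA mutants, 53265 to 57384 in control-virus mutants, 51163 to 58070 in untreated mutants and 78393 to 89467 in wild-type hearts. Among them Myh6, a main myosin gene of the heart, is listed at 0 in 3 libraries, 1 each of the control-virus mutants, untreated mutants and wild-type hearts, so a listed 0 need not be an absence. Without Myh6 the sums were 46518 to 109112, 49116 to 53265, 51163 to 52636 and 77320 to 78687 FPKM in the same groups. The 5 atrial markers summed to 732 to 24593 FPKM in shRNA mutants, with the top in replicate 8, 23693 to 45171 in control-virus mutants, 18076 to 26898 in untreated mutants and 1242 to 3349.5 in wild-type hearts. Nppa, a natriuretic peptide gene that stressed ventricles also express, made up nearly all of that sum, while Myl7, Myl4 and Sln were at no more than 17.4 FPKM in any library and Nr2f2 was at 5.03 to 5.22 FPKM in control-virus mutants and 6.27 to 7.68 FPKM in wild-type hearts. Of the 12 skeletal muscle markers, 3 passed the filter, and their sum over all 12 reached no more than 123 FPKM in any library. In bulk RNA, fewer cells of a type and less RNA per cell cannot be told apart, and the part of these shifts in the results below was not tested.

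In control-virus mutants against wild-type hearts, the list split. The GLUT1 gene Slc2a1, the platelet-type phosphofructokinase Pfkp, the lactate exporter Slc16a3 and the glycogen primer Gyg were higher, while the GLUT4 gene Slc2a4, the muscle hexokinase Hk2, the bisphosphatase Fbp2, the heart-type lactate dehydrogenase Ldhb and glycogen synthase Gys1 were lower. In all, 6 of 39 were called higher and 9 lower, beside 24.3% of all tested genes called, 12.6% higher and 11.7% lower. The median difference over the 39 was -0.13 on the log2 scale, against -0.01 over all tested genes. Without shRNA replicate 8, which enters this test only through the shared estimate of the spread, 11 were called higher and 16 lower, beside 39.6% of all genes, 19.8% in each direction. Leaving out control-virus mutant 1 or 2 left 4 or 5 called, and leaving out wild-type replicate 2, 3 or 4 left 2, 8 or 7. The count called without control-virus mutant 3 is not given here. At an unadjusted p under 0.05 there were 25, 22 and 25 without control-virus mutant 1, 2 or 3. With all libraries there were 27, beside 40.4% of all tested genes. Here and below, fits that leave out a library other than shRNA replicate 8 are given without the share of all genes. With sex as a covariate 1 was called, beside 2.53% of all genes, and with sex as a covariate and without shRNA replicate 8, 8 were called higher and 14 lower, beside 27.6%. On the values as deposited, where the median of all genes sat at -0.14, the calls were 1 higher and 11 lower, beside 2.15% and 7.35% of all genes.

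Untreated mutants against wild-type hearts gave 7 called higher and 10 lower, beside 25.8% of all tested genes, 12% higher and 13.8% lower. The median over the 39 was -0.17 and over all tested genes 0.01 on the log2 scale. Without shRNA replicate 8 the counts were 9 and 14, beside 39.7% of all genes, 18.9% higher and 20.8% lower. Leaving out untreated mutant 9, 10 or 11 left 6, 2 or 8 called, and leaving out wild-type replicate 2, 3 or 4 left 2, 8 or 6. As deposited, with the median of all genes at -0.33, 2 were called higher and 14 lower, beside 1.54% and 19.2% of all genes. With sex as a covariate, 7 were called higher and 13 lower, beside 1912 higher and 2162 lower of 12980 tested genes. Both mutant comparisons use the same wild-type hearts.

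In shRNA mutants against control-virus mutants, Slc2a4, Hk2, Pfkm, Fbp2, Pfkfb1, Eno3, Ldhb and Gys1 were among the genes that were higher, and Slc2a1, Pfkp, Slc16a3, Gyg and Stbd1 were lower. Of the 39, 11 were called higher and 5 lower, beside 24.1% of all tested genes, 11.9% higher and 12.2% lower. The median difference was 0.23 over the 39 and 0.00 over all tested genes on the log2 scale. Without replicate 8 the counts were 21 higher and 9 lower, beside 48.1% of all genes, 24.2% higher and 23.9% lower, with a median of 0.32. Leaving out any other library of these groups, with replicate 8 kept, left few calls: 1, 2 and 3 without shRNA replicate 5, 6 or 7, and 2, 2 and 1 without control-virus mutant 1, 2 or 3. With sex as a covariate limma called 0, beside 0.185% of all genes, and 10 had an unadjusted p under 0.05, beside 2402 of 12980 tested genes. With sex as a covariate and without replicate 8, 17 were called higher and 7 lower, beside 29.6% of all genes. As deposited, where the median of all genes sat at 0.47, 21 were called higher and 2 lower, beside 33.4% and 1.66% of all genes. The control-virus mutants enter this comparison and the one with wild-type hearts.

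Against untreated mutants, the shRNA mutants had 11 genes called higher and 6 lower, beside 29.1% of all tested genes, 16% higher and 13.1% lower, and 16 and 8 without replicate 8, beside 49.4%, 25.4% higher and 24% lower. The median was 0.21 over the 39 and 0.00 over all tested genes. Without shRNA replicate 5, 6 or 7 there were 8, 7 and 9 calls, and without untreated mutant 9, 10 or 11 there were 9, 5 and 9. With sex as a covariate, 12 were called higher and 6 lower, beside 2243 higher and 1905 lower of 12980 tested genes. As deposited, 27 were called higher and 1 lower, beside 53.6% and 1.21% of all genes, with the median of all genes at 0.66.

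Between shRNA mutants and wild-type hearts, 0 of 39 were called by limma, beside 0.0847% of all tested genes, 0.0308% higher and 0.0539% lower. In that fit 1 gene, the glycogen-binding protein Stbd1, had an unadjusted p under 0.05, which is 2.56% of the 39 against 11.7% of all tested genes. Without replicate 8, 3 were called, all higher, beside 5.66% of all genes, 3.17% higher and 2.5% lower: Slc2a12, Pfkfb1 and Eno3. Control-virus mutants against untreated mutants gave 0 calls by limma, beside 0% of all tested genes. In that comparison Pfkl, Ldha, Ppp1r3a and Phka1 had an unadjusted p under 0.05, which is 10.3% of the 39 against 9.98% of all tested genes. Without shRNA replicate 8 it still gave 0, beside 0.0462% of all genes, 0.0231% in each direction. No called gene changed direction under any of the alternatives tried.

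**Figure D1:**
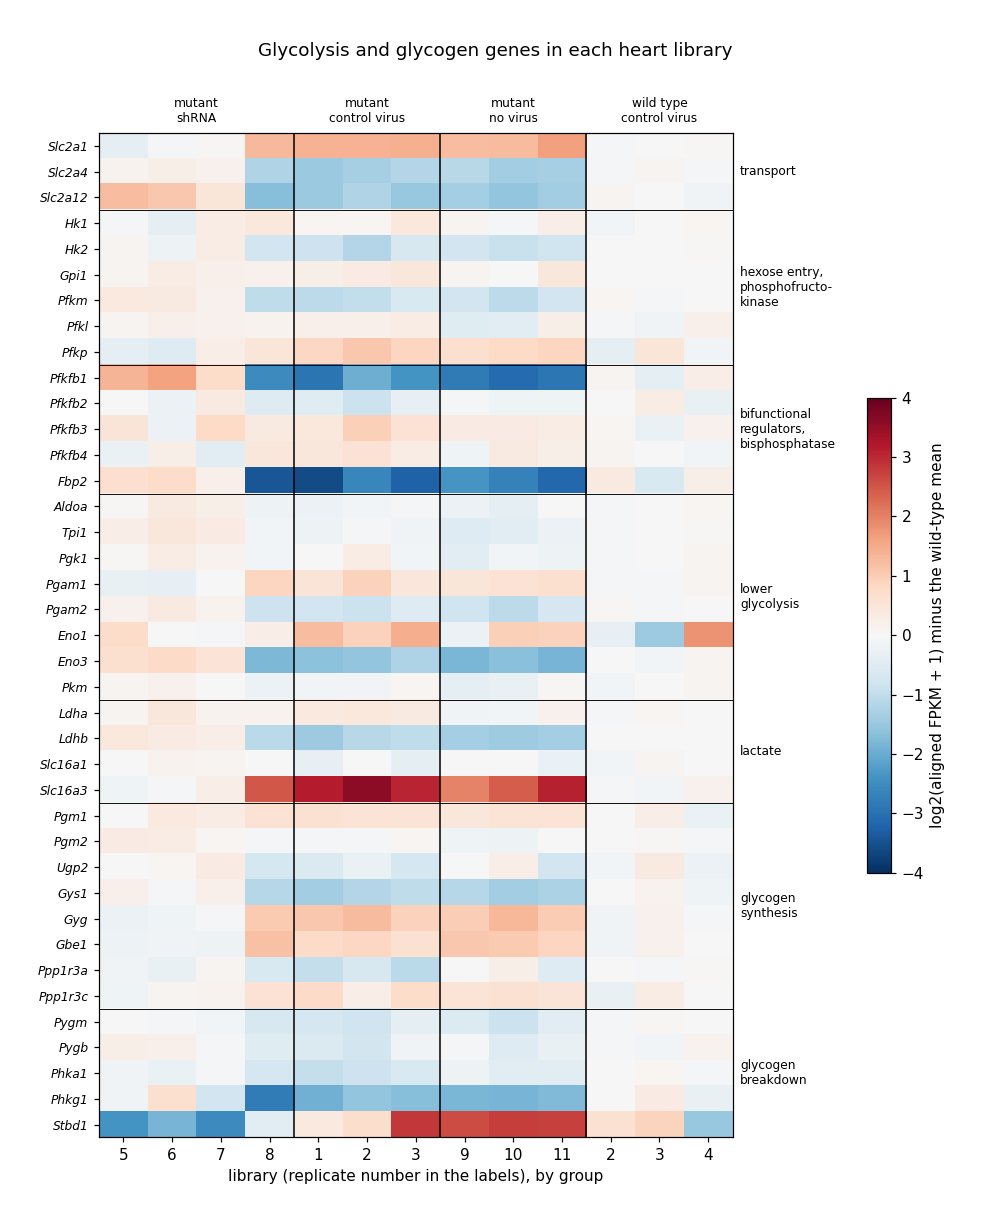
Each row is 1 of the 39 tested genes, grouped by role, and each column 1 heart library. Colour gives log2(aligned FPKM + 1) minus the mean of the 3 wild-type libraries; shRNA replicate 8 has the colours of the control-virus and untreated mutants for the 21 genes that separate mutants from wild type.

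**Figure D2:**
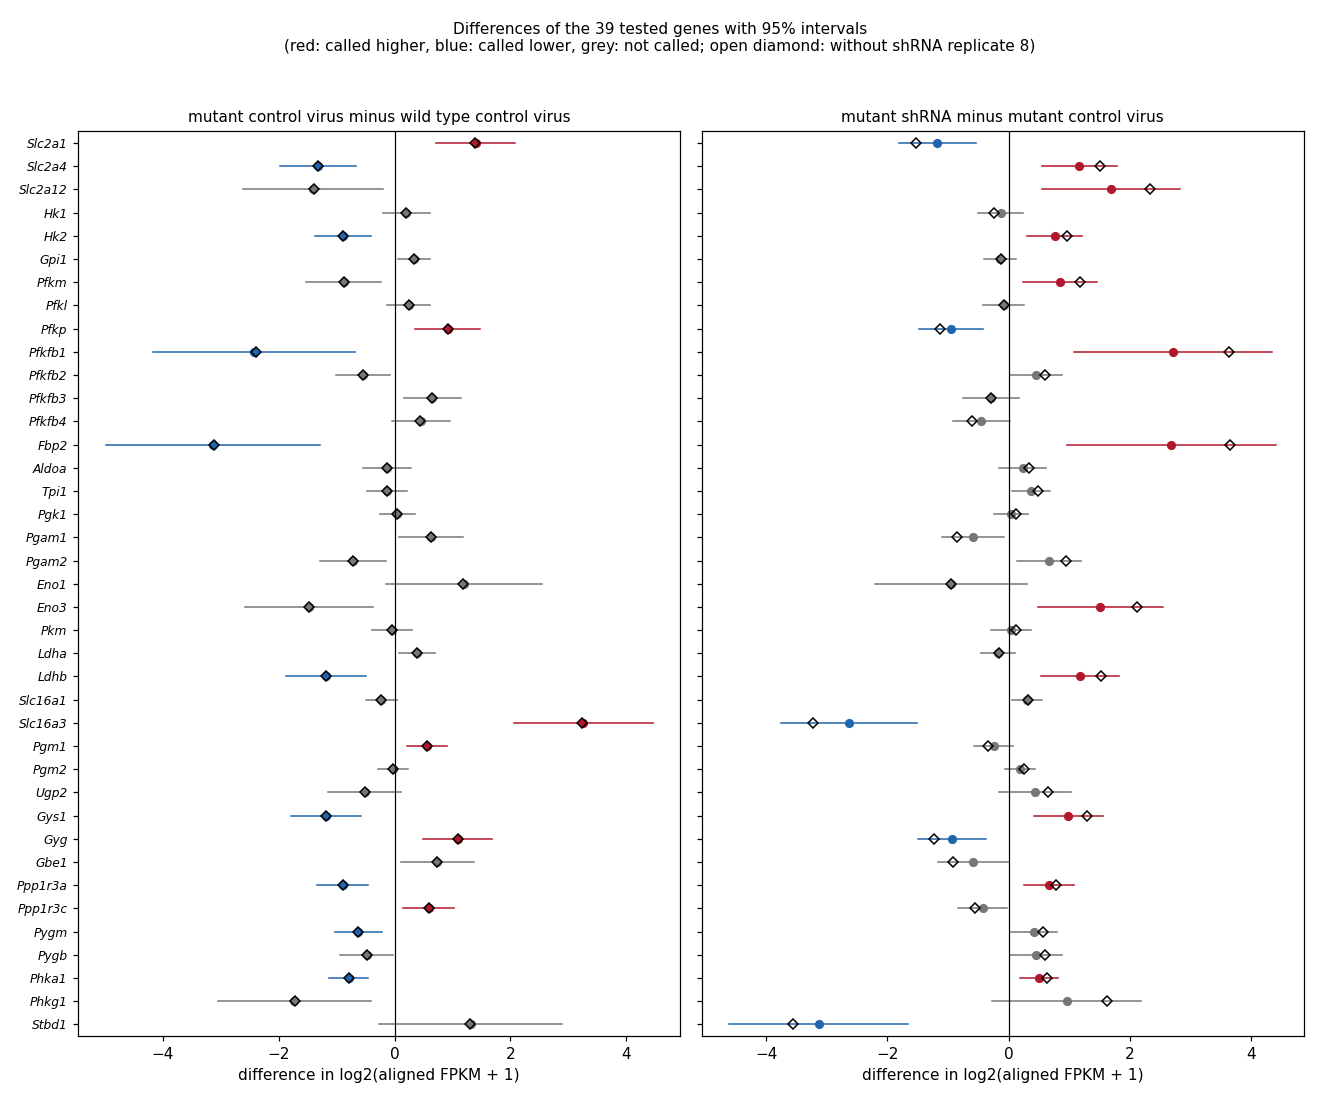
Difference in log2(aligned FPKM + 1) of the 39 tested genes, with 95% intervals, for control-virus mutants minus wild-type hearts (left) and shRNA mutants minus control-virus mutants (right). Filled points are the fit on 13 libraries, red where called higher and blue where called lower; open diamonds are the fit without shRNA replicate 8, which lie farther from 0 in the right panel for Fbp2, Pfkfb1 and Slc16a3.

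Of the 3 glucose transporters, 1 was called higher and 1 lower in control-virus mutants against wild-type hearts, beside 24.3% of all tested genes. With sex as a covariate, limma called 1 of the 39 genes in that comparison and 0 in shRNA against control-virus mutants, so the counts by role below do not hold in that fit. Without shRNA replicate 8, the fit with sex called 8 higher and 14 lower in the first comparison, beside 27.6% of all genes. In the second it called 17 higher and 7 lower, beside 29.6%. Slc2a1, which encodes GLUT1, the transporter of basal glucose uptake, stood at 16.7, 20.6, 22.6 and 55.3 FPKM in shRNA mutants 5 to 8, at 59.2, 58.8 and 59.8 FPKM in control-virus mutants, at 52.4, 53.6 and 69.8 FPKM in untreated mutants and at 20.9, 22.2 and 22.6 FPKM in wild-type hearts. The 6 mutants without shRNA and shRNA replicate 8 were all above 50 FPKM, and the other 6 libraries were all below 25. It was 2.63-fold higher in control-virus mutants than in wild-type hearts (log2 difference 1.40 ± 0.31 SE, limma adjusted p = 0.014) and 2.58-fold higher in untreated mutants. In shRNA mutants it was 2.26-fold lower than in control-virus mutants, and 2.89-fold lower without replicate 8. As deposited, the excess in control-virus mutants over wild-type hearts was 1.25 on the log2 scale and was not called.

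Slc2a4, which encodes GLUT4, the insulin- and contraction-responsive transporter of muscle, mirrored it. Its levels were 438, 470, 450 and 171 FPKM in shRNA mutants 5 to 8, 140, 159 and 176 FPKM in control-virus mutants, 184, 151 and 157 FPKM in untreated mutants and 387, 429 and 373 FPKM in wild-type hearts. No mutant without shRNA reached 200 FPKM, and no wild-type heart fell under 350. It was 2.51-fold lower in control-virus mutants than in wild-type hearts (log2 difference -1.33 ± 0.30 SE, limma adjusted p = 0.0145) and 2.42-fold lower in untreated mutants. The shRNA mutants were 2.25-fold above the control-virus mutants, and 2.86-fold without replicate 8.

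Slc2a12, which encodes GLUT12, a further transporter found in heart and skeletal muscle, was low in mutants without shRNA. It reached 17.8, 16.1, 10.3 and 1.48 FPKM in shRNA mutants 5 to 8, 1.85, 2.46 and 1.80 FPKM in control-virus mutants, 2.10, 1.66 and 2.04 FPKM in untreated mutants and 7.69, 7.11 and 6.34 FPKM in wild-type hearts. The control-virus mutants lay below the wild-type hearts without overlap, but the 2.66-fold difference was not called with all 13 libraries (limma adjusted p = 0.0805). It was called without shRNA replicate 8. The shRNA mutants were 3.23-fold above control-virus mutants, and 5.03-fold without replicate 8, and replicates 5 to 7 also lay above every wild-type heart, at 1.91-fold.

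The makeup of the summed transporter FPKM does not depend on how libraries are scaled. Slc2a1 made up 3.54% to 4.67% of the 3 transporters in shRNA replicates 5 to 7 and 24.3% in replicate 8, 25.2% to 29.5% in control-virus mutants, 22.0% to 30.5% in untreated mutants and 4.84% to 5.61% in wild-type hearts.

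Of 6 genes of hexose entry and phosphofructokinase, 1 was called higher and 1 lower in control-virus mutants against wild-type hearts, beside 24.3% of all tested genes, and 2 higher and 1 lower in shRNA against control-virus mutants, beside 24.1% of all tested genes. Hk2, the hexokinase of insulin-responsive tissue, had 208, 167, 237 and 112 FPKM in shRNA mutants 5 to 8, 106, 83.6 and 121 FPKM in control-virus mutants, 111, 102 and 109 FPKM in untreated mutants and 187, 189 and 197 FPKM in wild-type hearts. Mutants without shRNA and wild-type hearts did not overlap. It was 1.85-fold lower in control-virus mutants than in wild-type hearts (limma adjusted p = 0.0189) and 1.69-fold higher in shRNA than in control-virus mutants, 1.96-fold without replicate 8. Hk1, the hexokinase expressed in most tissues, overlapped between all groups (125 to 217 FPKM in shRNA mutants, 172 to 221 in control-virus mutants, 159 to 196 in untreated mutants and 152 to 174 in wild-type hearts). Hk1 made up 42.7% to 45.8% of the hexokinase pair in shRNA replicates 5 to 7, 65.9% in replicate 8, 61.7% to 67.5% in control-virus mutants, 61.0% to 64.2% in untreated mutants and 44.8% to 46.9% in wild-type hearts.

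Phosphofructokinase commits fructose 6-phosphate to glycolysis. Its muscle form Pfkm had 1144, 1129, 1003 and 436 FPKM in shRNA mutants 5 to 8, 426, 442 and 582 FPKM in control-virus mutants, 515, 429 and 519 FPKM in untreated mutants and 920, 854 and 869 FPKM in wild-type hearts. The lowest wild-type heart was well above the highest mutant without shRNA. The 1.84-fold deficit of control-virus mutants missed the threshold (limma adjusted p = 0.0504) and was called without shRNA replicate 8. In shRNA mutants Pfkm was 1.81-fold higher than in control-virus mutants, and 2.27-fold without replicate 8.

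The platelet form Pfkp went the other way. It stood at 37.3, 33.5, 58.5 and 68.9 FPKM in shRNA mutants 5 to 8, at 86.3, 103 and 88.9 FPKM in control-virus mutants, at 76.1, 84.6 and 88.7 FPKM in untreated mutants and at 37.8, 67.8 and 44.6 FPKM in wild-type hearts. Every mutant without shRNA was above every wild-type heart. The excess in control-virus mutants was 1.89-fold (limma adjusted p = 0.0273), and shRNA mutants were 1.93-fold below control-virus mutants, 2.18-fold without replicate 8. Pfkl, the liver form, lay between 72.1 and 126 FPKM and was not called with all libraries in any comparison. As deposited it was called higher in shRNA than in untreated mutants, at a log2 difference of 1.14 (limma adjusted p = 0.00164), where the median of all genes sat at 0.66. The share of Pfkm in the 3 forms was 85.3% to 88.6% in shRNA replicates 5 to 7, 70.5% in replicate 8, 66.6% to 73.0% in control-virus mutants, 71.3% to 77.7% in untreated mutants and 84.1% to 87.2% in wild-type hearts. Gpi1, the glucose phosphate isomerase gene, was at 386, 443, 415 and 407 FPKM in shRNA mutants, 421, 451 and 489 in control-virus mutants, 388, 353 and 493 in untreated mutants and 356, 358 and 361 in wild-type hearts. It was not called with all libraries.

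**Figure D3:**
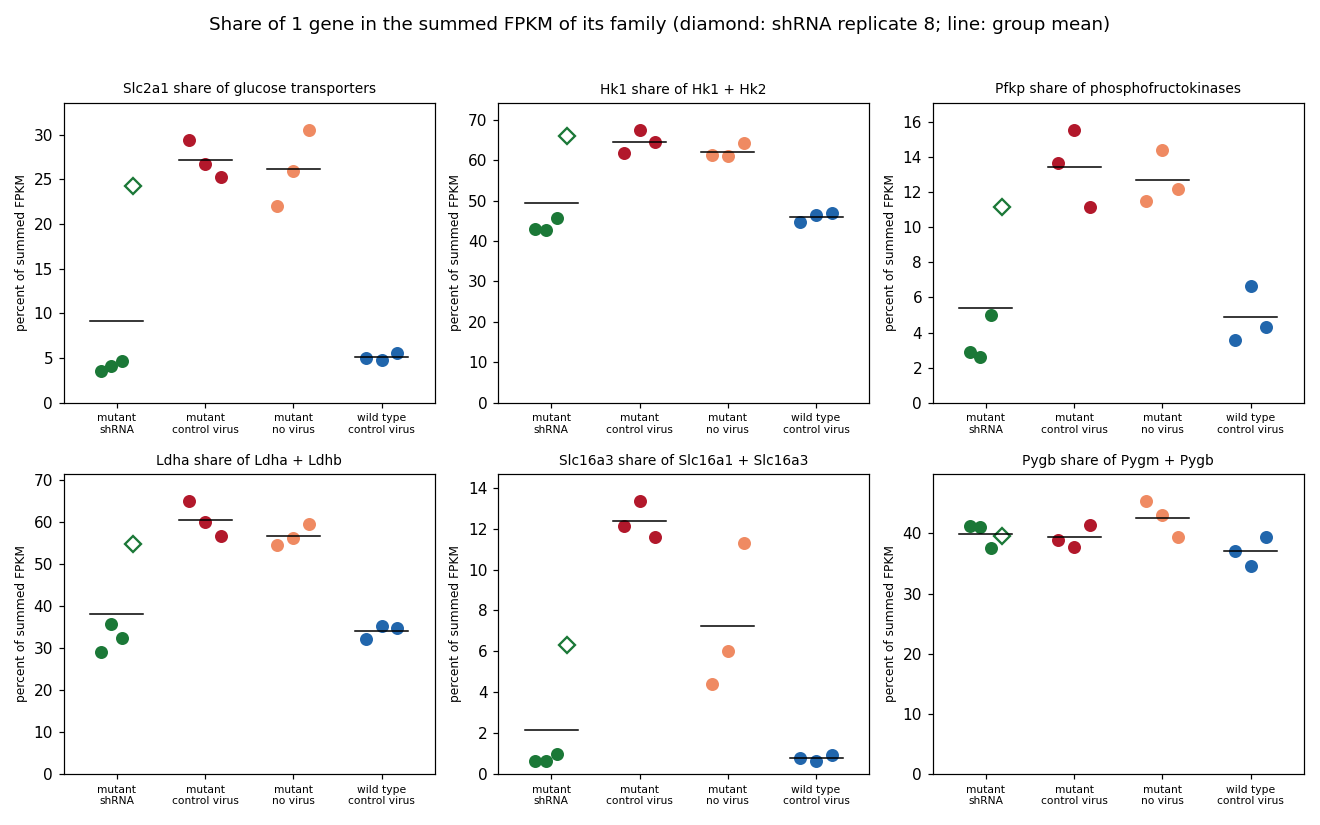
Each point is 1 library, and the vertical axis gives the percent of a family's summed FPKM that 1 gene makes up, with lines at group means. Slc2a1, Hk1, Pfkp, Ldha and Slc16a3 take larger shares in control-virus and untreated mutants and in shRNA replicate 8 (diamond) than in shRNA replicates 5 to 7 and wild-type hearts, while the Pygb share, at 34.6% to 45.4% in all libraries, overlaps between groups.

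Fbp2 and Pfkfb1 had the largest fold deficits of the list in control-virus mutants, and they were the 2 genes called lower among the 5 of this branch, beside 24.3% of all tested genes. Fbp2, the muscle fructose bisphosphatase, which turns fructose 1,6-bisphosphate back into fructose 6-phosphate and takes part in making glycogen from lactate, had 44.7, 47.3, 32.2 and 1.65 FPKM in shRNA mutants 5 to 8, 1.41, 3.69 and 2.06 FPKM in control-virus mutants, 4.64, 3.38 and 2.25 FPKM in untreated mutants and 35.7, 18.0 and 33.0 FPKM in wild-type hearts. All mutants without shRNA and shRNA replicate 8 were under 5 FPKM, and the remaining 6 libraries were at 18 FPKM or above. Control-virus mutants were 8.81-fold below wild-type hearts (log2 difference -3.14 ± 0.85 SE, limma adjusted p = 0.024) and untreated mutants 6.66-fold. The shRNA mutants were 6.44-fold above control-virus mutants (limma adjusted p = 0.0325), and 12.7-fold without replicate 8. Against wild-type hearts, the shRNA mutants differed by -0.45 ± 0.80 (log2 difference and SE) with replicate 8 and by 0.54 ± 0.29 without it, and neither difference was called (limma adjusted p = 0.871 and 0.309). RefSeq lists Fbp1 and Fbp2 as synonyms of each other, and the row Fbp1, the liver form under its current symbol, was at most 1.20 FPKM in any library.

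The RefSeq promoter of Fbp2 is shown because this gene had the largest fold deficit in control-virus mutants. It spans the 250 bases before the start of the gene (GRCm38.p6, chr13:62858401-62858650, minus strand), and capitals mark the motif CACGTG, an E-box read by several helix-loop-helix factors, which holds ACGTG, the core of the hypoxia response element, on each strand.
Fbp2: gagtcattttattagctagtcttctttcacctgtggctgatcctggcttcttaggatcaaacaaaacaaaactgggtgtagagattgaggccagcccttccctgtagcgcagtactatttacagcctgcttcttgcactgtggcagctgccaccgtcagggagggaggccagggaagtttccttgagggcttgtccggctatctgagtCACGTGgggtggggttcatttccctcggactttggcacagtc
Promoters of 37 of the 40 genes, some with several starts, were searched on both strands. Pgm1 and Pgm2 were left out because their symbols are exchanged between annotations, and Slc2a4 had no promoter entry. Fbp2 was kept although RefSeq lists it as a synonym of Fbp1. ACGTG occurred in at least 1 promoter for 17 of the 37, against 18.5% of 27025 genes in the promoter table, and CACGTG for 7, against 6.86% of genes. The MEF2 motif occurred for 3, Pfkfb1, Pgam2 and Ppp1r3a, against 3.42% of genes. The motif TNAAGGTCA, read by estrogen-related receptors, occurred for 0, against 1.3% of genes, and GGGCGG, the core of GC boxes, for 22, against 35.4% of genes. The 37 genes had 55 promoters, and the 27025 genes of the promoter table had 32851, so the listed genes had more promoters per gene in which to match. The promoter table is not limited to genes expressed in heart. These are matches of letters and not sites of binding.

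The bifunctional PFKFB enzymes set the level of fructose 2,6-bisphosphate, the main activator of phosphofructokinase. Pfkfb1, whose products are the liver and muscle isoforms, had 25.6, 30.8, 16.4 and 0.775 FPKM in shRNA mutants 5 to 8, 0.361, 1.65 and 0.996 FPKM in control-virus mutants, 0.450, 0.237 and 0.412 FPKM in untreated mutants and 10.1, 7.09 and 11.4 FPKM in wild-type hearts. Mutants without shRNA stayed under 2 FPKM and did not overlap wild-type hearts. The gene was 5.36-fold lower in control-virus mutants (limma adjusted p = 0.0463) and 7.60-fold lower in untreated mutants than in wild-type hearts. It was 6.58-fold higher in shRNA than in control-virus mutants, 12.4-fold without replicate 8, and shRNA replicates 5 to 7 exceeded wild-type hearts by 2.36-fold.

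The other PFKFB genes moved less. Pfkfb2, the heart isoform, had 76.9, 66.1, 99.5 and 53.4 FPKM in shRNA mutants 5 to 8, 55.2, 42.0 and 61.7 FPKM in control-virus mutants, 74.9, 68.5 and 67.7 FPKM in untreated mutants and 76.3, 95.2 and 63.3 FPKM in wild-type hearts. Only the control-virus mutants lay apart from the wild-type hearts, below them, and the 1.47-fold difference was not called (limma adjusted p = 0.0754). Pfkfb3, the inducible isoform, had 7.08, 3.87, 8.87 and 6.27 FPKM in shRNA mutants, 6.59, 10.1 and 7.49 in control-virus mutants, 6.18, 6.07 and 5.94 in untreated mutants and 5.04, 3.75 and 5.39 in wild-type hearts. Control-virus and untreated mutants lay above the wild-type hearts without overlap, and the 1.57-fold excess of control-virus mutants was not called (limma adjusted p = 0.0543). Pfkfb4 stayed between 1.60 and 4.41 FPKM and was not called with all libraries.

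**Figure D4:**
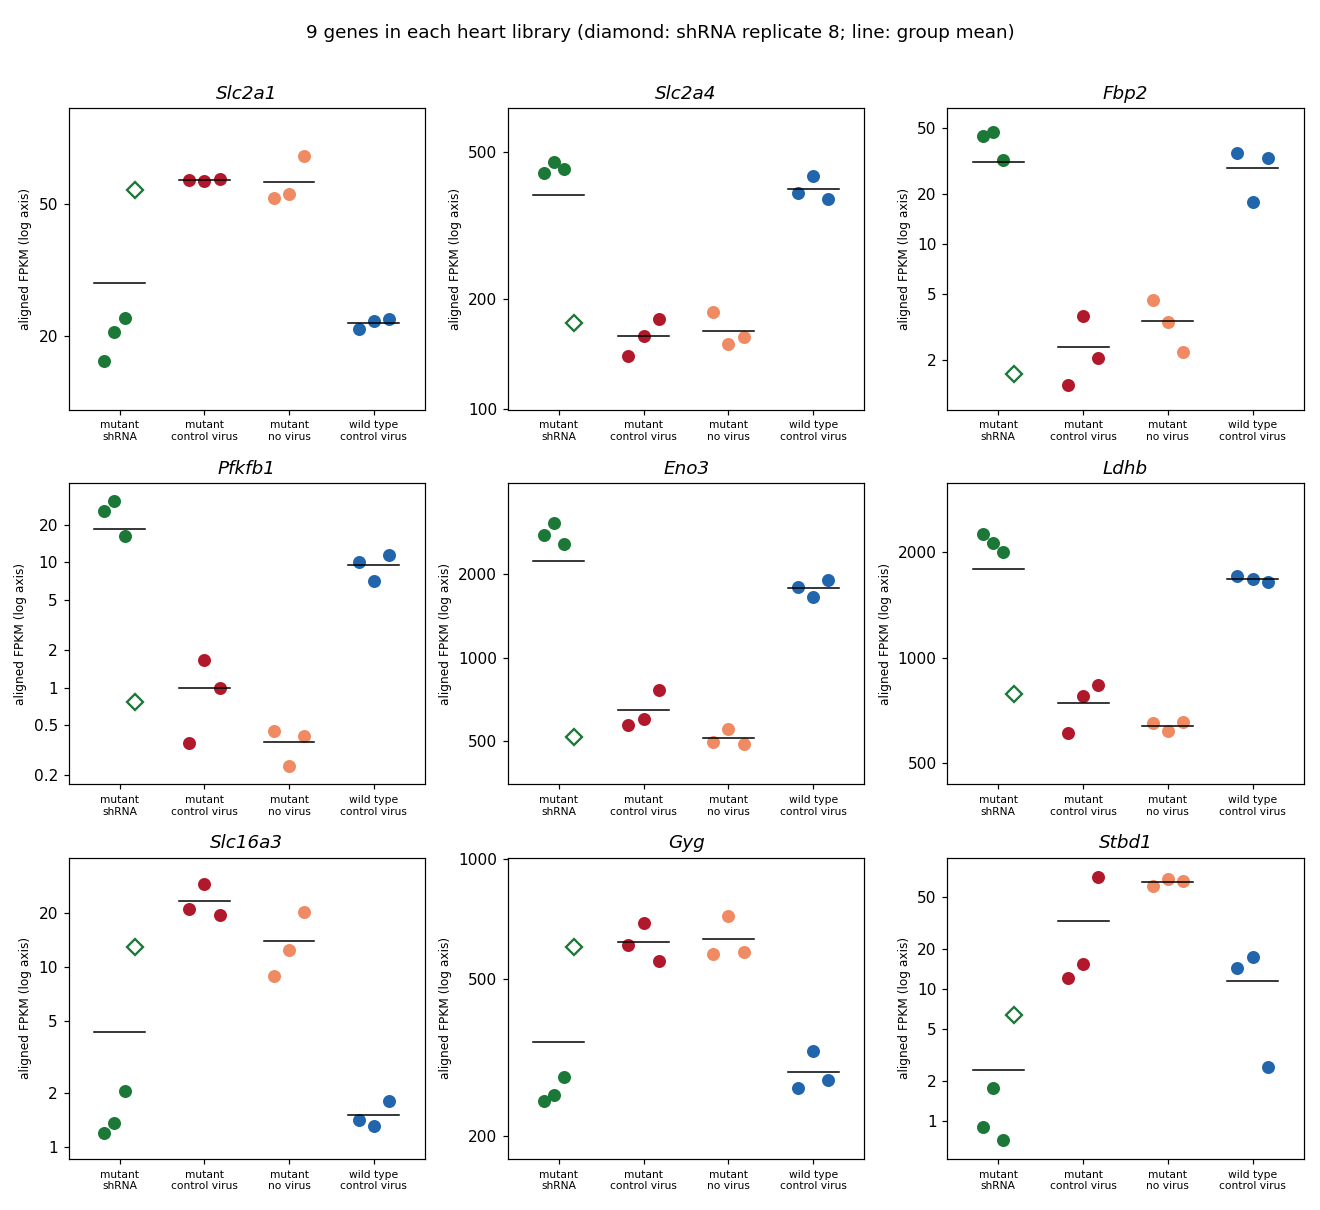
Aligned FPKM of 9 genes in each library on log axes, with lines at group means. Slc2a1, Slc16a3 and Gyg are higher, and Slc2a4, Fbp2, Pfkfb1, Eno3 and Ldhb lower, in the 6 mutants without shRNA and in shRNA replicate 8 (diamond) than in wild-type hearts; Stbd1 varies widely within control-virus mutants and wild-type hearts.

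Of 8 tested genes of lower glycolysis, 0 were called by limma in control-virus mutants against wild-type hearts, beside 24.3% of all tested genes. At an unadjusted p under 0.05 there were 3, beside 40.4% of all tested genes. In untreated mutants 2, Eno3 and Pgam2, were called lower, beside 25.8% of all tested genes. Eno3, the muscle enolase, had 2772, 3058, 2578 and 515 FPKM in shRNA mutants 5 to 8, 571, 602 and 763 FPKM in control-virus mutants, 497, 553 and 487.0 FPKM in untreated mutants and 1791, 1658 and 1904 FPKM in wild-type hearts. Mutants without shRNA and wild-type hearts were far apart, and shRNA replicates 5 to 7 lay above every wild-type heart. Untreated mutants were 3.48-fold below wild-type hearts (limma adjusted p = 0.0267), while the 2.78-fold deficit of control-virus mutants missed the threshold (limma adjusted p = 0.0525) and was called without shRNA replicate 8. The gene was 2.86-fold higher in shRNA than in control-virus mutants, 4.36-fold without replicate 8. By mean level it was the gene of rank 2 among the 40 in wild-type hearts and of rank 8 in control-virus mutants.

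Pgam2, the muscle phosphoglycerate mutase, had 1776, 2034, 1733 and 881 FPKM in shRNA mutants 5 to 8, 927, 864 and 1102 FPKM in control-virus mutants, 914, 768 and 995 FPKM in untreated mutants and 1622, 1526 and 1582 FPKM in wild-type hearts. Pgam1, the widely expressed form, had 14.9, 14.6, 18.3 and 34.4 FPKM in shRNA mutants, 27.0, 36.6 and 25.8 in control-virus mutants, 26.3, 28.1 and 29.8 in untreated mutants and 17.9, 18.3 and 20.1 in wild-type hearts. In neither gene did mutants without shRNA overlap wild-type hearts, with Pgam2 below and Pgam1 above. Pgam2 was called lower in untreated mutants (1.78-fold, limma adjusted p = 0.0366) and not in control-virus mutants (1.64-fold, limma adjusted p = 0.0617), and Pgam1 was called in neither with all libraries and in both without shRNA replicate 8.

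The other lower steps differed less. Aldoa, the muscle aldolase and the most abundant gene of the list in control-virus mutants and wild-type hearts, had 3128, 3846, 3543 and 2585 FPKM in shRNA mutants 5 to 8, 2576, 2812 and 2885 FPKM in control-virus mutants, 2558, 2286 and 3039 FPKM in untreated mutants and 2863, 3015 and 3146 FPKM in wild-type hearts. The control-virus mutants overlapped the wild-type hearts, with a log2 difference of -0.13 ± 0.19 SE, and without replicate 8 the shRNA mutants were 1.27-fold above the control-virus mutants, which was called. Pkm, the pyruvate kinase of muscle, ranged over 1084 to 1455 FPKM in shRNA mutants, 1187 to 1369 in control-virus mutants, 1004 to 1331 in untreated mutants and 1198 to 1375 in wild-type hearts. Pgk1, the phosphoglycerate kinase gene, ranged over 72.6 to 123 FPKM in all libraries, and neither gene was called in any comparison on aligned values with all libraries. Tpi1, the triosephosphate isomerase gene, was called only in shRNA against untreated mutants, at 913 to 1373 FPKM against 691 to 836 FPKM (1.55-fold higher, limma adjusted p = 0.0116, all libraries), and without replicate 8 the difference was 1.69-fold. Without that library, or as deposited, it was also called in other comparisons. Eno1, the widely expressed enolase, was listed at no more than 8.50 FPKM; RefSeq holds a near-identical copy, Eno1b, between which reads may have been split, so its level is uncertain.

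Slc16a3 had the largest fold change of the list in control-virus mutants against wild-type hearts. It encodes MCT4, the lactate exporter of glycolytic cells. Its levels were 1.20, 1.37, 2.04 and 12.9 FPKM in shRNA mutants 5 to 8, 21.1, 28.9 and 19.5 FPKM in control-virus mutants, 8.96, 12.4 and 20.3 FPKM in untreated mutants and 1.42, 1.30 and 1.80 FPKM in wild-type hearts. All mutants without shRNA and shRNA replicate 8 were above 8 FPKM, and the other libraries were at about 2 FPKM or below. The excess was 9.54-fold in control-virus mutants (log2 difference 3.25 ± 0.55 SE, limma adjusted p = 0.00718) and 5.67-fold in untreated mutants (limma adjusted p = 0.0124), and it was called in both under all alternatives tried. The shRNA mutants were 6.19-fold below control-virus mutants, and 9.34-fold without replicate 8. As with the fibroblast and macrophage markers, the mutants without shRNA and shRNA replicate 8 were the high libraries, and the cell type that carries this RNA was not tested.

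The RefSeq promoter of Slc16a3 is shown as that of the gene with the largest excess. It covers the 250 bases before the start (GRCm38.p6, chr11:120948817-120949066, plus strand), and capitals mark ACGTG, which occurs at 2 places on this strand.
Slc16a3: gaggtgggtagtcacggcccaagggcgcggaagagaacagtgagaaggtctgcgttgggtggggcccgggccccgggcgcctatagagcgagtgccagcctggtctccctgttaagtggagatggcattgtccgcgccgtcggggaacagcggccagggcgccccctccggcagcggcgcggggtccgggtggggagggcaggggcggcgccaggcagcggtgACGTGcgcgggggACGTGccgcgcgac
Both promoters shown hold ACGTG. Among genes called lower in both mutant comparisons with wild-type hearts, ACGTG occurred for 3 of the 6 with a promoter entry searched. Among those called higher in both, it occurred for 2 of 4. Whether the motif goes with direction was not tested.

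Slc16a1, which encodes MCT1, the lactate transporter of the heart muscle cell, had 193, 212, 204 and 191 FPKM in shRNA mutants 5 to 8, 153, 188 and 149 FPKM in control-virus mutants, 194, 194 and 159 FPKM in untreated mutants and 177, 206 and 189 FPKM in wild-type hearts. The groups overlapped except that every shRNA mutant was above every control-virus mutant, and no comparison was called on aligned values with all libraries. As deposited, Slc16a1 was called higher in shRNA than in untreated mutants. Slc16a3 made up 0.618% to 0.988% of the pair in shRNA replicates 5 to 7, 6.33% in replicate 8, 11.6% to 13.3% in control-virus mutants, 4.42% to 11.3% in untreated mutants and 0.631% to 0.944% in wild-type hearts.

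Lactate dehydrogenase is a tetramer of A and B subunits, the B subunit being the main form of the adult heart. Ldhb, the gene of the B subunit, had 2246, 2123, 1994 and 790 FPKM in shRNA mutants 5 to 8, 610, 777 and 834 FPKM in control-virus mutants, 649, 618 and 654 FPKM in untreated mutants and 1709, 1674 and 1642 FPKM in wild-type hearts. No mutant without shRNA came near the wild-type range. The deficit was 2.28-fold in control-virus mutants (limma adjusted p = 0.0229) and 2.61-fold in untreated mutants (limma adjusted p = 0.0139), and shRNA mutants were 2.25-fold above control-virus mutants, 2.88-fold without replicate 8.

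Ldha, the gene of the A subunit, had 919, 1184, 957 and 957 FPKM in shRNA mutants, 1129, 1159 and 1094 in control-virus mutants, 775, 794 and 964 in untreated mutants and 807, 906 and 870 in wild-type hearts. Control-virus mutants were above wild-type hearts without overlap, at 1.31-fold, but this was not called (limma adjusted p = 0.061), and untreated mutants overlapped wild-type hearts. The A share of the pair was 29.0% to 35.8% in shRNA replicates 5 to 7, 54.8% in replicate 8, 56.8% to 64.9% in control-virus mutants, 54.4% to 59.6% in untreated mutants and 32.1% to 35.1% in wild-type hearts, so A outweighed B in every mutant without shRNA and in no wild-type heart.

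Of 8 genes of glycogen synthesis, 3 were called higher and 2 lower in control-virus mutants against wild-type hearts, beside 24.3% of all tested genes, the primer gene Gyg being higher and the synthase gene Gys1 lower. Gys1, the glycogen synthase of muscle and heart, had 102, 84.7, 102 and 40.0 FPKM in shRNA mutants 5 to 8, 33.3, 39.0 and 43.4 FPKM in control-virus mutants, 39.2, 32.8 and 36.5 FPKM in untreated mutants and 90.2, 98.0 and 78.3 FPKM in wild-type hearts. Every mutant without shRNA was below 45 FPKM and every wild-type heart above 75. It was 2.27-fold lower in control-virus mutants (limma adjusted p = 0.016) and 2.41-fold lower in untreated mutants than in wild-type hearts, and 1.98-fold higher in shRNA than in control-virus mutants, 2.46-fold without replicate 8.

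Gyg, which encodes glycogenin, the protein on which a glycogen chain is begun, had 245, 255, 282 and 601 FPKM in shRNA mutants 5 to 8, 607, 692 and 553 FPKM in control-virus mutants, 578, 722 and 584 FPKM in untreated mutants and 265, 329 and 277 FPKM in wild-type hearts. The lowest mutant without shRNA was above the highest wild-type heart. It was 2.12-fold higher in control-virus mutants (limma adjusted p = 0.0201) and 2.16-fold higher in untreated mutants, and shRNA mutants were 1.91-fold below control-virus mutants, 2.36-fold without replicate 8. Gbe1, the branching enzyme, ranged over 64.8 to 168 FPKM in shRNA mutants, with the top in replicate 8, 115 to 133 in control-virus mutants, 135 to 158 in untreated mutants and 67.7 to 83.3 in wild-type hearts. Against wild-type hearts it was called higher in untreated mutants (1.99-fold, limma adjusted p = 0.0289) and missed the threshold in control-virus mutants (1.67-fold, limma adjusted p = 0.0779), and it was called in both without shRNA replicate 8.

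Ppp1r3a and Ppp1r3c encode subunits that bring protein phosphatase 1 to glycogen, where it activates glycogen synthase. Ppp1r3a had 80.5, 72.0, 96.7 and 58.1 FPKM in shRNA mutants 5 to 8, 45.5, 56.4 and 41.7 FPKM in control-virus mutants, 90.5, 105 and 62.5 FPKM in untreated mutants and 90.3, 85.9 and 91.6 FPKM in wild-type hearts. Control-virus mutants were below all other libraries, and untreated mutants overlapped wild-type hearts. The gene was 1.86-fold lower in control-virus mutants than in wild-type hearts (limma adjusted p = 0.0141) and 1.58-fold higher in shRNA than in control-virus mutants (limma adjusted p = 0.0293), 1.72-fold without replicate 8. Control-virus against untreated mutants, 1.76-fold lower without overlap, was not called (limma adjusted p = 0.297), the smallest adjusted p of the 39 in that comparison. Ppp1r3c ranged over 156 to 262 FPKM in shRNA mutants, 212 to 300 in control-virus mutants, 252 to 269 in untreated mutants and 143 to 216 in wild-type hearts. It was called higher in control-virus mutants by a narrow margin although the ranges touch, and it kept that call in 6 of 25 alternatives.

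The remaining synthesis genes differed less. Pgm2, a phosphoglucomutase, had 347, 344, 294 and 272 FPKM in shRNA mutants 5 to 8, 267, 262 and 297 FPKM in control-virus mutants, 245, 241 and 278 FPKM in untreated mutants and 284, 285 and 267 FPKM in wild-type hearts, and no comparison was called with all libraries. Pgm1 ranged over 5.56 to 8.78 FPKM in shRNA mutants, 8.52 to 8.97 in control-virus mutants, 8.09 to 8.71 in untreated mutants and 4.49 to 6.84 in wild-type hearts. It was called higher in control-virus mutants (1.47-fold) and untreated mutants (1.43-fold) than in wild-type hearts. RefSeq lists Pgm1 and Pgm2 as synonyms of each other, so which of the phosphoglucomutases each row stands for is uncertain. Ugp2, which makes UDP-glucose, ranged over 156 to 337 FPKM in all libraries and was not called with all of them.

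Of 5 genes of glycogen breakdown, 2 were called lower and 0 higher in control-virus mutants against wild-type hearts, beside 24.3% of all tested genes, and 2 lower and 1 higher in untreated mutants, beside 25.8% of all tested genes. Pygm, the muscle glycogen phosphorylase, had 1192, 1184, 1123 and 779 FPKM in shRNA mutants 5 to 8, 756, 706 and 918 FPKM in control-virus mutants, 841, 666 and 899 FPKM in untreated mutants and 1178, 1254 and 1218 FPKM in wild-type hearts. Mutants without shRNA and wild-type hearts did not overlap. It was 1.54-fold lower in control-virus mutants (limma adjusted p = 0.033) and 1.53-fold lower in untreated mutants. In shRNA over control-virus mutants the 1.34-fold difference with all libraries was not called, and without replicate 8 it was called at 1.48-fold. Pygb, the brain phosphorylase, which the heart also expresses, had 835, 827, 677 and 510 FPKM in shRNA mutants, 481, 429 and 647 in control-virus mutants, 698, 503 and 583 in untreated mutants and 693, 663 and 790 in wild-type hearts. It was not called on aligned values with all libraries, but as deposited it was called higher in shRNA mutants than in control-virus and untreated mutants. The Pygm and Pygb shares overlapped between groups.

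Phosphorylase kinase switches phosphorylase on. Its muscle alpha subunit gene Phka1 had 23.3, 21.3, 24.6 and 15.8 FPKM in shRNA mutants 5 to 8, 12.9, 14.0 and 16.8 FPKM in control-virus mutants, 22.2, 18.6 and 18.5 FPKM in untreated mutants and 25.7, 27.3 and 24.5 FPKM in wild-type hearts. The groups stood in the order control-virus mutants, untreated mutants and wild-type hearts without overlap between neighbours. It was 1.73-fold lower in control-virus mutants than in wild-type hearts (log2 difference -0.79 ± 0.15 SE, limma adjusted p = 0.00908), while the 1.30-fold deficit of untreated mutants was not called (limma adjusted p = 0.0888). The muscle catalytic subunit gene Phkg1 had 19.8, 34.7, 12.6 and 2.33 FPKM in shRNA mutants, 5.12, 6.75 and 6.04 in control-virus mutants, 5.48, 5.36 and 5.71 in untreated mutants and 21.7, 27.9 and 17.6 in wild-type hearts. It was called lower in untreated mutants (3.54-fold, limma adjusted p = 0.0445) and missed the threshold in control-virus mutants (3.32-fold, limma adjusted p = 0.0545).

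Stbd1, which tethers glycogen to membranes and takes part in its delivery to lysosomes, was singled out after its values were seen. It had 0.900, 1.76, 0.716 and 6.33 FPKM in shRNA mutants 5 to 8, 12.1, 15.5 and 71.1 FPKM in control-virus mutants, 60.8, 68.1 and 66.3 FPKM in untreated mutants and 14.4, 17.6 and 2.55 FPKM in wild-type hearts. Every shRNA mutant was below every mutant without shRNA, and shRNA replicates 5 to 7 were also below every wild-type heart. Control-virus mutant 3 was like the untreated mutants, and the other control-virus mutants overlapped the wild-type hearts. The shRNA mutants were 23.2-fold below untreated mutants (log2 difference -4.53 ± 0.68 SE, limma adjusted p = 0.00237), a call kept under all alternatives tried, and 8.78-fold below control-virus mutants (limma adjusted p = 0.0157). Without replicate 8 these differences were 31.0-fold and 11.8-fold. Against wild-type hearts the log2 difference was -1.82 ± 0.68 SE and was not called (limma adjusted p = 0.33), and without replicate 8 it was -2.25 ± 0.63, again not called (limma adjusted p = 0.0554). Untreated mutants were 6.56-fold above wild-type hearts (limma adjusted p = 0.0222), and control-virus mutants, at 2.48-fold, were not called (limma adjusted p = 0.193).

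Further genes of these pathways were read from lists of their own. Of 18 tested genes of glycolysis and lactate beyond the 40, 3 were called higher and 3 lower in control-virus mutants against wild-type hearts, beside 24.3% of all tested genes, with a median of -0.23 on the log2 scale. In shRNA against control-virus mutants 5 were called higher and 4 lower, beside 24.1%, with a median of 0.18, and 7 and 5 without replicate 8, beside 48.1%. With sex as a covariate the calls were 0 higher and 2 lower in control-virus mutants against wild-type hearts, beside 2.53%. Without shRNA replicate 8 that fit called 3 higher and 5 lower, beside 27.6%. Ldhd, the D-lactate dehydrogenase of mitochondria, was 2.67-fold lower in control-virus mutants (28.7 against 78.3 FPKM in wild-type hearts, limma adjusted p = 0.00718) and 2.06-fold higher in shRNA than in control-virus mutants, 2.47-fold without replicate 8. Gpd1, the glycerol phosphate dehydrogenase of the cytosol, averaged 52.0 FPKM in control-virus mutants and 86.7 FPKM in wild-type hearts (1.65-fold lower). Hk3, a hexokinase known from myeloid cells, averaged 3.16 FPKM in control-virus mutants and 1.23 FPKM in wild-type hearts (1.86-fold higher). In untreated mutants it was at 1.69, 1.13 and 2.56 FPKM, overlapping the wild-type range of 1.07 to 1.32 FPKM.

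Of 15 further glycogen genes, 0 were called higher and 3 lower in control-virus mutants against wild-type hearts, beside 24.3% of all tested genes, with a median of -0.14. In shRNA against control-virus mutants 2 were called higher and 0 lower, beside 24.1%, and 4 and 2 without replicate 8, beside 48.1%. In the fit with sex as a covariate, limma called 0 in control-virus mutants against wild-type hearts, beside 2.53% of all genes. In it 3 had an unadjusted p under 0.05, beside 3004 of 12980 tested genes. Without shRNA replicate 8 that fit called 1 higher and 4 lower, beside 27.6%. Among the 3 genes lower in control-virus mutants with all libraries were Ppp1r3b and Ppp1r3d, further glycogen-targeting subunits, at 1.90-fold and 1.96-fold.

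Of 15 tested genes that bring pyruvate into mitochondrial oxidation, 1 was called higher and 10 lower in control-virus mutants against wild-type hearts, beside 12.6% and 11.7% of all tested genes, with a median of -0.73. When sex was a covariate, limma called 0 of them, beside 2.53% of all genes, and 8 had an unadjusted p under 0.05, beside 3004 of 12980 tested genes. With sex as a covariate and without shRNA replicate 8, 1 was called higher and 10 lower, beside 27.6% of all genes. In untreated mutants 1 was called higher and 8 lower, beside 12% and 13.8%, with a median of -0.68, and in shRNA against control-virus mutants 8 were called higher and 1 lower, beside 11.9% and 12.2%, with a median of 0.64, or 13 and 1 without replicate 8, beside 24.2% and 23.9%. Dlat, the acetyltransferase of the pyruvate dehydrogenase complex, averaged 159 FPKM in control-virus mutants and 326 FPKM in wild-type hearts (2.05-fold lower, limma adjusted p = 0.0121). Pdp2, a phosphatase that activates the complex, averaged 4.75 FPKM in control-virus mutants and 19.3 FPKM in wild-type hearts (3.53-fold lower, limma adjusted p = 0.0193). The gene called higher was Pdk3, a kinase that inhibits the complex, at 7.46 FPKM in control-virus mutants and 1.65 FPKM in wild-type hearts (3.16-fold, limma adjusted p = 0.0105). The 8 cardiomyocyte markers, among them Myh6 with its listed 0 values, had a median of -0.77 in the same comparison. Of these 8, 1 was called lower, beside 11.7% of all tested genes. Without shRNA replicate 8 it was 5, beside 19.8%. A link between these markers and the pyruvate genes was not tested.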

How the data were processed

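PolyA RNA of 13 hearts was used; 11 small RNA samples of the same study were not used here. Per the submitters' processing notes, FastQC 0.11.2, STAR 2.40, Cufflinks 2.2.1 and Cuffdiff were run with mouse build mm9; those notes do not say which step each served, nor name an annotation or a scaling. Per the file headers, the authors deposited FPKM, 1 column per library. The columns were aligned by the median log2 deviation from the gene mean over genes above 0 in every library, and log2(aligned FPKM + 1) of genes averaging 1 FPKM or more as deposited was tested with limma 3.58.1 in R 4.3.3 (lmFit, eBayes with trend, two-sided, Benjamini-Hochberg over 12980 genes), in 1 model of group means over all 4 groups. The script recovered known changes when tested on simulated data. Groups follow the sample labels. Replicate numbers 2 and 3 are shared by control-virus mutants and wild-type hearts, which are different animals.

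The 40 genes, the lists and the tests were chosen with earlier results of these data known. Per-library values are given for Fbp2, for up to 3 genes of each role with the smallest adjusted p in control-virus mutants against wild-type hearts and for 1 more with the highest mean, and for Stbd1; of each further list up to 3 genes with the smallest adjusted p are named, except 1 gene that is not reported here. Shares of families were computed on FPKM without a pseudocount. Promoters, 250 bases before each start, came from RefSeq (GRCm38.p6). Alternatives were as-deposited values, quantile normalization, equal totals, a pseudocount of 0.1, other filters, the compared groups alone, robust eBayes, sex as a covariate, a replicate block and leaving out each library.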

Additional observations from a re-analysis of the deposited data

Results flagged for a closer look

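In the shRNA group, the only one with 4 libraries, 7 of the 40 genes had 1 library set far from the other 3. This is by Dixon's test at its 95% critical value, where chance gives about 1 such gene in 20. The share of all tested genes flagged this way is not given, so the count does not set the list apart. Over all tested genes that separated mutants from wild type, 85.8% put replicate 8 nearer to the mutants. Replicate 8 was the distant library for 6 of the 7 flagged genes. It was the highest for Slc2a1 at 55.3 FPKM, Slc16a3 at 12.9 FPKM, Gyg at 601 FPKM and Gbe1 at 168 FPKM, and the lowest for Slc2a4 at 171 FPKM and Pygm at 779 FPKM. For Ldha, replicate 6 was the highest at 1184 FPKM. The cause was not tested.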

How the results depend on the processing

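Called genes kept their direction under every alternative, but most calls were lost under some: all alternatives kept Slc16a3 in both mutant comparisons with wild type, Stbd1 in shRNA against untreated mutants, and 0 of 16 calls in shRNA against control-virus mutants. Leaving out 1 library at a time gave 2 to 27 calls for control-virus mutants against wild type, 2 to 23 for untreated mutants against wild type, 1 to 30 for shRNA against control-virus mutants, 5 to 24 for shRNA against untreated mutants and 0 to 3 for shRNA against wild type. The top of each range came without shRNA replicate 8, beside 39.6%, 39.7%, 48.1%, 49.4% and 5.66% of all tested genes in the same order. Sex as a covariate gave 1 call in control-virus mutants against wild type and 0 in shRNA against control-virus mutants, beside 2.53% and 0.185% of all tested genes. In untreated mutants against wild type that fit called 7 higher and 13 lower, beside 1912 higher and 2162 lower of 12980. In shRNA against untreated mutants that fit called 12 higher and 6 lower, beside 2243 higher and 1905 lower. Without shRNA replicate 8 it gave 27 in shRNA against untreated mutants, beside 3220 genes higher and 3026 lower of 12980. In shRNA against wild type it then gave 5, beside 383 higher and 312 lower. The compared groups alone gave 29 calls for control-virus mutants against wild type, 0 for shRNA against control-virus mutants (18 at an unadjusted p under 0.05) and 1 for shRNA against untreated mutants. As-deposited values gave 28 calls for shRNA against untreated mutants, beside 53.6% of all tested genes higher and 1.21% lower. Without replicate 8 they gave 26 in shRNA against control-virus mutants, 29 in shRNA against untreated mutants and 3 in shRNA against wild type. No filter on low values gave 11 calls for untreated mutants against wild type. The shared replicate numbers did not pair the samples (correlations of -0.18 and -0.11), and the replicate block gave 24 calls for control-virus mutants against wild type. For the other counts in this section the share of all tested genes is not given, so they do not compare the list with all genes. The causes of these shifts were not tested. Unknown read depth leaves counting error in low genes such as Pfkfb1 and Aldoc unmeasured.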

Other observations

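Of 18 genes of the pentose phosphate, polyol and hexosamine branches, 4 were called higher and 2 lower in control-virus mutants against wild-type hearts, beside 24.3% of all tested genes, 12.6% higher and 11.7% lower, with a median of 0.11 on the log2 scale, and the other 12 were not called. A fit with sex as a covariate called 1, beside 2.53%. Without shRNA replicate 8 that fit called 4 higher and 2 lower, beside 27.6%. In shRNA against control-virus mutants 3 were called higher and 3 lower, beside 24.1%, and 4 and 5 without replicate 8, beside 48.1%. Taldo1 and Pgd, enzymes of the pentose phosphate pathway, averaged 229 and 77.9 FPKM in control-virus mutants, against 153 and 41.1 FPKM in wild-type hearts (1.50-fold and 1.88-fold higher by limma, adjusted p = 0.00726 and 0.0142). Sord, the sorbitol dehydrogenase of the polyol pathway, averaged 78.7 FPKM in control-virus mutants and 159 FPKM in wild-type hearts (2.00-fold lower, limma adjusted p = 0.0141).

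Among 23 regulators of glucose use, 2 were called higher and 4 lower in control-virus mutants against wild-type hearts, beside 24.3% of all tested genes, with a median of -0.32. A limma fit with sex as a covariate called 0, beside 2.53% of all genes, and 7 had an unadjusted p under 0.05, beside 3004 of 12980 tested genes. Without shRNA replicate 8 that fit called 3 higher and 8 lower, beside 27.6%. In shRNA against control-virus mutants 5 were called higher and 1 lower, beside 24.1%, and 12 and 4 without replicate 8, beside 48.1%. Hif1a and Epas1, which encode the oxygen-regulated alpha subunits of related factors, differed in opposite directions. Hif1a had 56.7, 59.2, 57.5 and 82.1 FPKM in shRNA mutants 5 to 8, 104, 73.8 and 63.6 in control-virus mutants, 70.9, 95.8 and 84.1 in untreated mutants and 37.1, 35.3 and 47.2 in wild-type hearts, and was 1.96-fold higher in control-virus mutants than in wild-type hearts (limma adjusted p = 0.0102). Epas1 had 258, 210, 239 and 107 FPKM in shRNA mutants, 91.6, 81.1 and 96.8 in control-virus mutants, 105, 102 and 104 in untreated mutants and 198, 219 and 195 in wild-type hearts, and was 2.26-fold lower (limma adjusted p = 0.0117). Neither overlapped between mutants without shRNA and wild-type hearts. Myc, a growth-related transcription factor, averaged 14.7 FPKM in control-virus mutants and 2.68 FPKM in wild-type hearts (4.19-fold higher, limma adjusted p = 0.0193).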
